A study of Mus musculus with 16 samples.

Results

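A set of 10 genes that mark macrophages was followed through 4 stages of mouse forelimb development: Spi1, Csf1r, Ptprc, Adgre1, Cx3cr1, Cd68, Mpeg1, C1qa, C1qb and C1qc. They were taken by gene symbol from a table of counts for 53800 genes, in which all 10 were present, and all 10 were among the 15501 genes that passed the filter on low counts. The samples were the outermost 150 microns of forelimb buds of B6 mouse embryos at the stages E9.5 and E10.5 and the later stages E11.5 and E12.5, where E gives the days of embryonic development. After a treatment with 0.25% trypsin on ice, forceps parted the surface ectoderm from the mesoderm beneath it, and polyadenylated RNA of each layer was sequenced. This gave 8 groups (ectoderm and mesoderm at each stage) of 2 libraries, 16 libraries in all, with no transgene, mutation or treatment in any group. Both layers of a stage with equal replicate numbers were taken from 1 embryo batch, and the version of the RNA kit (RNeasy Plus Mini for replicate 1, RNeasy Mini for replicate 2) went with the replicate number at every stage.

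Macrophages are phagocytes that take up dead cells and debris. The first ones of the mouse embryo come from progenitors of the yolk sac and reach the tissues through the young circulation, so a limb bud starts without its own and receives them from outside, mostly into its mesoderm. The transcription factor PU.1, encoded by Spi1, drives the myeloid programme, and the receptor encoded by Csf1r passes on the survival signal of the growth factors CSF1 and IL34. In limb buds these cells are best known for clearing cells that die between the future digits.

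As a check of the layers, 10 surface epithelium markers such as Epcam and Krt14 summed to between 2337 and 6830 CPM in ectoderm and to between 6.65 and 83.3 CPM in mesoderm. CPM are counts scaled to a library of 1000000 with the effective library sizes of edgeR. The 10 limb mesenchyme markers such as Prrx1 and Twist1 summed to between 2240 and 4986 CPM in mesoderm and to between 524 and 1379 CPM in ectoderm. The top of the last range was ectoderm E11.5 replicate 1, against 524 to 975 CPM in the other ectoderm libraries, and results that rest on it are given with and without it. Library totals ran from 10005867 to 30438214 counts. In whole tissue, fewer macrophages and less RNA per macrophage cannot be told apart. Tests compare libraries from 2 embryo batches per stage, which also differ in kit version. A p-value is therefore set against the spread of batch and kit together. The main fit does not pair the layers of a batch.

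The C1q chains are encoded side by side on the minus strand of chromosome 4 (mm10), with C1qb at chr4:136880129-136886187, C1qc at chr4:136889804-136893065 and C1qa at chr4:136895917-136898803. Their products form the recognition part of complement component C1, which also tags dead cells, and tissue macrophages are a main source. The RefSeq promoter table (build GRCm38.p6) held 6 of the 10 genes. The 4 sequences below are those of the C1q neighbours in the table, of Cd68, whose level behaved unlike the rest, and of Mpeg1, which was at 0 counts at E9.5. They are shown so that windows with and without the motif can be compared, lie upstream of the RefSeq start without bases of annotated exons, which shortened the C1qc window, and read 5′ to 3′ on the gene's strand. Capitals mark GAGGAA or its reverse TTCCTC, a purine-rich word of the kind that PU.1 binds, searched on both strands.
C1qb, chr4:136886201-136886450, minus strand: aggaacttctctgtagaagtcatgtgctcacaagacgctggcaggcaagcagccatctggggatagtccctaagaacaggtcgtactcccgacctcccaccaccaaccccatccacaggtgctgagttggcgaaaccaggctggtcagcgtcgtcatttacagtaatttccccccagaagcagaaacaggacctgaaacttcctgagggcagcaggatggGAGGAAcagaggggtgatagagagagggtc
C1qc, chr4:136893066-136893164, minus strand: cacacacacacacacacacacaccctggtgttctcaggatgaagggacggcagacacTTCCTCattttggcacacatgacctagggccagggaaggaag
Cd68, chr11:69666171-69666420, minus strand: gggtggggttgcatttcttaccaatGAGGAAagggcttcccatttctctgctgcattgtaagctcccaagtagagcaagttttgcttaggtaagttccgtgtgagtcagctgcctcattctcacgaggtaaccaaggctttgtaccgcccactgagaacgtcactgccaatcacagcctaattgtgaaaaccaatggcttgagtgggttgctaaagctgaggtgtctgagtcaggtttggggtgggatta
Mpeg1, chr19:12460520-12460769, plus strand: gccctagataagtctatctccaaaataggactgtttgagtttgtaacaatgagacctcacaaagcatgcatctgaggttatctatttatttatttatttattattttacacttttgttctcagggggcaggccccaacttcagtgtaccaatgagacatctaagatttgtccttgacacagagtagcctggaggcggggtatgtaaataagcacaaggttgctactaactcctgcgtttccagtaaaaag
Searched in the full 250 upstream bases of the table's entries, the motif was present in 4 of the 6 genes, Ptprc, C1qb, C1qc and Cd68. It was not found in Mpeg1 or in Cx3cr1, whose window lies within the annotated gene and is not printed. Among all 32851 promoters of the table, 23.25% held it in their 250 upstream bases, so a match describes these letters and not a bound site.

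In mesoderm the 10 genes together rose from almost nothing. Their summed level was 3.25 and 2.89 CPM at E9.5 (replicate 1 first, as in all pairs that follow), 29.7 and 41.5 at E10.5, next 80.0 and 49.8 at E11.5, then 182.7 and 69.2 at E12.5. In ectoderm the sum was 1.69 and 1.93 CPM at E9.5, 3.64 and 5.87 at E10.5, next 31.7 and 6.42 at E11.5, then 5.49 and 3.83 at E12.5. The jump between E9.5 and E10.5 was therefore seen in the mesoderm, and E11.5 replicate 1 was the only ectoderm library within the range of mesoderm from E10.5 on.

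**Figure D1:**
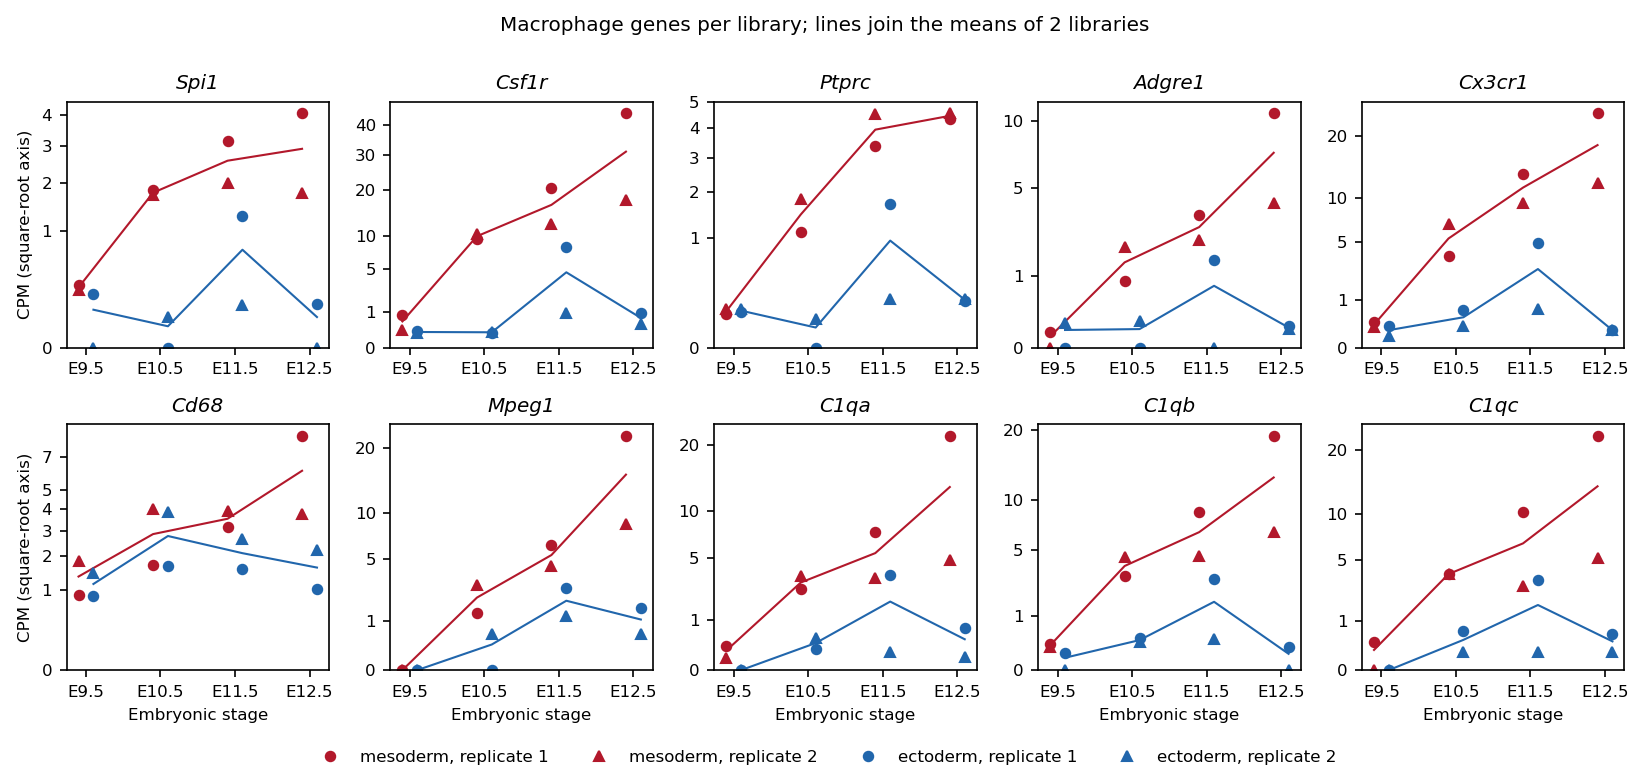
Level of each gene in every library, in CPM on a square-root axis, against embryonic stage. Red symbols are mesoderm and blue symbols ectoderm, circles are replicate 1 and triangles replicate 2, and lines join the means of the 2 libraries. Mesoderm levels climb from E9.5 on for all 10 genes, Cd68 starts above 0 in both layers, and the high ectoderm circle at E11.5 is 1 library.

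The factor and the growth factor receptor were measured first. Spi1 in mesoderm was at 0.287 and 0.246 CPM at E9.5, 1.83 and 1.71 at E10.5, next 3.15 and 1.998 at E11.5, then 4.05 and 1.77 at E12.5. In ectoderm it was at 0.211 and 0 CPM at E9.5, 0 and 0.0668 at E10.5, next 1.28 and 0.132 at E11.5, then 0.137 and 0 at E12.5, with at most 3 counts per library outside E11.5 replicate 1. Mesoderm of E10.5 and later lay above every E9.5 library, and the 3 later stages overlapped in part: the E12.5 libraries bracketed both E11.5 libraries.

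Csf1r in mesoderm was at 0.860 and 0.246 CPM at E9.5, 9.63 and 10.4 at E10.5, next 20.5 and 12.45 at E11.5, then 44.5 and 17.6 at E12.5. In ectoderm it was at 0.211 and 0.181 CPM at E9.5, 0.177 and 0.200 at E10.5, next 8.18 and 0.993 at E11.5, then 0.961 and 0.462 at E12.5. Each mesoderm stage lay above the one before except that E12.5 and E11.5 overlapped, and no ectoderm library reached mesoderm of E10.5.

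Among the surface proteins, Ptprc encodes CD45, a phosphatase carried by leukocytes. In mesoderm it was at 0.0955 and 0.123 CPM at E9.5, 1.104 and 1.84 at E10.5, next 3.37 and 4.53 at E11.5, then 4.36 and 4.57 at E12.5. Ectoderm held 0.106 and 0.121 CPM at E9.5, 0 and 0.0668 at E10.5, next 1.70 and 0.199 at E11.5, then 0.183 and 0.198 at E12.5. Its E11.5 and E12.5 mesoderm libraries overlapped, and their means, 3.95 ± 0.819 and 4.47 ± 0.153 CPM (SD, n = 2), differed by less than the SD at E11.5, as did those of Spi1 (2.57 ± 0.813 and 2.91 ± 1.615 CPM).

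Adgre1 encodes F4/80, the antigen long used to stain mouse macrophages. In mesoderm it was at 0.0478 and 0 CPM at E9.5, 0.863 and 1.98 at E10.5, next 3.41 and 2.26 at E11.5, then 10.8 and 4.09 at E12.5. The ectoderm values were 0 and 0.121 CPM at E9.5, 0 and 0.134 at E10.5, next 1.49 and 0 at E11.5, then 0.0915 and 0.0660 at E12.5. The mesoderm stages were ordered without overlap, and outside E11.5 replicate 1 no ectoderm library had more than 2 counts.

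Cx3cr1 encodes the receptor for the chemokine CX3CL1 and is carried by monocytes, young macrophages and microglia. In mesoderm it was at 0.287 and 0.185 CPM at E9.5, 3.76 and 6.89 at E10.5, next 13.5 and 9.39 at E11.5, then 24.6 and 12.1 at E12.5. Ectoderm libraries had 0.211 and 0.0603 CPM at E9.5, 0.621 and 0.200 at E10.5, next 4.86 and 0.662 at E11.5, then 0.137 and 0.132 at E12.5. Mesoderm of E11.5 lay above E10.5, E11.5 and E12.5 overlapped, and ectoderm E11.5 replicate 1 lay within the range of mesoderm E10.5.

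Mpeg1 encodes perforin-2, a pore-forming protein of phagocytes, and was the one member with 0 counts in all 4 E9.5 libraries. In mesoderm it reached 1.35 and 2.93 CPM at E10.5, next 6.39 and 4.40 at E11.5, then 22.4 and 8.72 at E12.5. Its ectoderm levels were 0 and 0.534 CPM at E10.5, next 2.73 and 1.19 at E11.5, then 1.56 and 0.528 at E12.5. Its mesoderm stages did not overlap, and it was the member with the most ectoderm counts outside E11.5 replicate 1 after Cd68, with 34 and 8 counts at E12.5.

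Cd68, which encodes a lysosomal membrane protein abundant in macrophages, had another pattern. In mesoderm it was at 0.860 and 1.85 CPM at E9.5, 1.69 and 4.02 at E10.5, next 3.15 and 3.93 at E11.5, then 8.50 and 3.78 at E12.5. The ectoderm had 0.844 and 1.45 CPM at E9.5, 1.69 and 3.87 at E10.5, next 1.58 and 2.65 at E11.5, then 1.01 and 2.24 at E12.5. It was found in every library, its mean was nearly equal in both layers at E9.5 and E10.5, every mesoderm stage overlapped the next, and replicate 2 was the higher library in 7 of the 8 groups.

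Of the complement chains, C1qa in mesoderm was at 0.239 and 0.0615 CPM at E9.5, 2.59 and 3.48 at E10.5, next 7.49 and 3.33 at E11.5, then 21.8 and 4.76 at E12.5. C1qb was at 0.239 and 0.185 CPM at E9.5, 3.07 and 4.43 at E10.5, next 8.65 and 4.53 at E11.5, then 19.0 and 6.65 at E12.5. C1qc was at 0.334 and 0 CPM at E9.5, 3.80 and 3.82 at E10.5, next 10.3 and 2.93 at E11.5, then 22.7 and 5.18 at E12.5. For all 3 chains mesoderm of E10.5 lay above E9.5, the E12.5 range overlapped that of E11.5, and replicate 1 was the higher library at both late stages.

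In ectoderm, C1qa was at 0 in both E9.5 libraries, 0.177 and 0.401 CPM at E10.5, next 3.58 and 0.132 at E11.5, then 0.686 and 0.0660 at E12.5. C1qb was at 0.106 and 0 CPM at E9.5, 0.355 and 0.267 at E10.5, next 2.90 and 0.331 at E11.5, then 0.183 and 0 at E12.5. C1qc was at 0 in both E9.5 libraries, 0.621 and 0.134 CPM at E10.5, next 3.37 and 0.132 at E11.5, then 0.549 and 0.132 at E12.5. The chains had at most 15 counts per ectoderm library except in E11.5 replicate 1, which had 84, 68 and 79 counts of C1qa, C1qb and C1qc.

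Set per transcript length (FPKM, from the authors' table), the C1q chains had the highest mean levels of the 10 genes in mesoderm at E12.5, at 10.7 ± 9.09 (C1qa), 9.91 ± 5.96 (C1qb) and 9.84 ± 8.20 FPKM (C1qc; SD, n = 2). Csf1r followed at 6.84 ± 3.69, Cx3cr1 at 4.76 ± 1.95, Cd68 at 3.88 ± 2.09, Mpeg1 at 3.13 ± 1.72, Adgre1 at 2.016 (2.84 and 1.2 in the 2 libraries), Spi1 at 1.74 ± 0.414 and Ptprc at 0.856 ± 0.0621 FPKM. With these SDs neighbours in the order did not differ beyond their spread, apart from the step from Spi1 to Ptprc.

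Between E9.5 and E12.5 all 10 genes rose in mesoderm by edgeR's quasi-likelihood test, with p adjusted by Benjamini-Hochberg over the 15501 tested genes and called under 0.05, as throughout. Of all tested genes, 17.0% were higher in this comparison. Members that were near 0 at E9.5 passed the count filter through their later mesoderm libraries, so their share among calls describes them and is no independent support. The same limit applies to the other comparisons with E9.5 or with ectoderm, and to listed genes near 0 there. The median log2 fold change of the 10 genes was 6.04, also with Mpeg1 at its bound, beside 0.02 over all tested genes. Cx3cr1 rose by 6.22 on the log2 scale (SE 0.93, adjusted p = 0.000622) and Csf1r by 5.75 (SE 0.93, adjusted p = 0.000993). Mpeg1 went from 0 to 657 counts, which is at least 207.1-fold higher with a floor of 3 counts over the group, and Adgre1 from 1 to 314 counts, a ratio of 297 (95% counting interval 52.9 to 11760). The smallest changes were those of Cd68, 2.19 (SE 0.66, adjusted p = 0.0266), and Spi1, 3.42 (SE 1.04, adjusted p = 0.0282). Leaving out mesoderm E12.5 replicate 1 or either mesoderm E9.5 library lowered the count, as it lowered calls among all tested genes. The genes that then missed were Cd68, C1qa, C1qc and Spi1 in turn, with adjusted p between 0.0514 and 0.191, all still higher at E12.5.

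On the log2 scale, most of this difference was already present at E10.5, except for Cd68. From E9.5 to E10.5, 5 of 10 members rose: Csf1r by 4.12 on the log2 scale (SE 0.89, adjusted p = 0.014), Cx3cr1 by 4.42 (SE 0.90, adjusted p = 0.0102), Ptprc by 3.67 (SE 0.87, adjusted p = 0.0228), C1qb by 4.08 (SE 1.03, adjusted p = 0.0306), and Mpeg1 from 0 to 82 counts, at least 23.3-fold (adjusted p = 0.0181). Of all tested genes, 5.30% were higher. Adgre1 (54 counts against 1, a ratio of 46.0 with a 95% counting interval of 7.92 to 1851, adjusted p = 0.063), C1qa (4.20, SE 1.43, adjusted p = 0.101), C1qc (4.34, SE 1.49, adjusted p = 0.106), Spi1 (2.69, SE 1.03, adjusted p = 0.139) and Cd68 (1.07, SE 0.65, adjusted p = 0.387) did not pass. The median over the members was 4.16 with Mpeg1 at its bound, and the median of all tested genes was 0. The count of calls leaned on the fit. Among all tested genes, 821 of 15501 were higher in the main fit and 2127 with the replicate number as a block. They were 452 of 13886 in the fit of only these groups, 1236 of 28342 without the count filter and 1166 of 15501 in DESeq2. The count of members was 9 with the replicate number as a block, in the fit of only these groups and without the count filter, and 8 in DESeq2. Leaving out any single mesoderm library of these stages lowered the calls, among members and among all tested genes. With libraries left out, the log2 fold change stayed above 0 for all 10 members, the lowest being 0.34 (Cd68).

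The later day steps were smaller on the log2 scale. From E10.5 to E11.5 the fitted log2 fold changes of the members lay between 0.32 (Cd68) and 1.43 (Ptprc), with a median of 0.84, and none was called by edgeR, where 0.277% of all tested genes were higher. From E11.5 to E12.5 they lay between 0.18 (Spi1 and Ptprc) and 1.53 (Mpeg1), with a median of 0.94, and again none was called, where 0.148% of all tested genes were higher. At an unadjusted p under 0.05 no member passed in either step, and DESeq2 and limma also called 0. All 10 fitted values were above 0 in both steps, but their SEs ran up to 1.15 and single libraries turned 5 of the genes: C1qc was at -0.38 from E10.5 to E11.5 without mesoderm E11.5 replicate 1, Cd68 at -0.19 without mesoderm E10.5 replicate 1, and for the last step Spi1 at -0.55, C1qc at -0.36 and C1qa at -0.19 without mesoderm E12.5 replicate 1, Spi1 at -0.11 without mesoderm E11.5 replicate 2 and Ptprc at -0.02 without mesoderm E11.5 replicate 1.

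**Figure D2:**
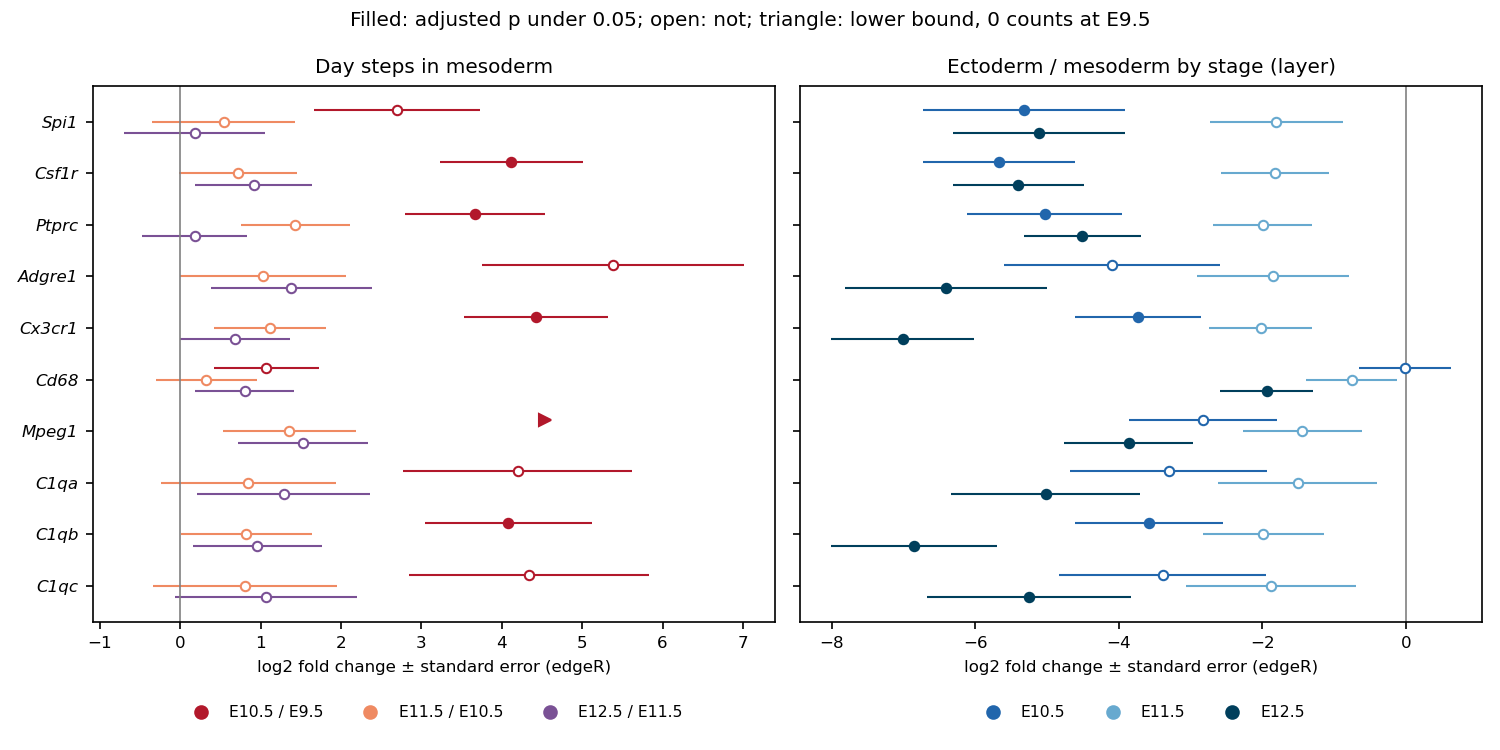
Log2 fold changes of the 10 genes with their standard errors from edgeR: day steps in mesoderm on the left, ectoderm over mesoderm at 3 stages on the right. Filled symbols passed an adjusted p under 0.05 and open ones did not; the triangle is the lower bound for Mpeg1, which had 0 counts at E9.5. The first day step holds the large changes, and the layer differences at E11.5 sit nearer to 0 than those at E10.5 and E12.5, except for Cd68.

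The pairs of mesoderm libraries moved as blocks. At E10.5 replicate 1 was the lower library for 9 of the 10 genes, with a median ratio of replicate 1 to replicate 2 of 0.646. At E11.5 it was the higher library for 8 of 10, with a median ratio of 1.54. At E12.5 it was higher for 9 of 10, with a median ratio of 2.55 and a range from 0.953 (Ptprc) to 4.57 (C1qa). Embryo batch and kit version both go with the replicate number within a stage and cannot be told apart there. Across the 8 mesoderm libraries the 45 pairs of genes had a median Pearson correlation of log2 CPM of 0.973, with the lowest at 0.741 (Cd68 and C1qc) and the highest at 0.997 (Adgre1 and Mpeg1). Without Cd68 the lowest was 0.886. These correlations are a description, since the points share the libraries and the stage.

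Counts relative to Csf1r in the same library describe the makeup of the set by stage, free of the total amount. Mpeg1 stood at 14.0 and 28.1 counts per 100 Csf1r counts at E10.5, next 31.1 and 35.3 at E11.5, then 50.3 and 49.5 at E12.5. Adgre1 stood at 8.96 and 19.0 at E10.5, next 16.6 and 18.2 at E11.5, then 24.2 and 23.2 at E12.5. Spi1 went the other way, with 19.0 and 16.3 at E10.5, next 15.3 and 16.04 at E11.5, then 9.10 and 10.03 at E12.5. For each of these 3 genes both E12.5 libraries lay outside the range of both earlier stages. The 95% counting intervals of Mpeg1 at E12.5 (45.2 to 56.0 and 40.2 to 60.7) lay above those of both E10.5 libraries (9.73 to 19.6 and 19.6 to 39.7), while that of E11.5 replicate 2 (26.2 to 47.0) overlapped both stages. For Adgre1 the E12.5 intervals (20.95 to 27.8 and 17.5 to 30.3) overlapped that of E10.5 replicate 2 (12.3 to 28.3). For Spi1 the interval of E12.5 replicate 2 (6.60 to 14.7) overlapped both E10.5 intervals (13.9 to 25.6 and 10.25 to 25.1). Overlap alone does not show whether these shifts exceed counting error, which was not tested.

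Other members differed between replicates, Ptprc among them. Ptprc stood at 11.47 and 17.7 counts per 100 Csf1r counts at E10.5, next 16.4 and 36.4 at E11.5, then 9.79 and 26.0 at E12.5. Replicate 2 was the higher library at each stage. The intervals of the 2 replicates did not overlap at E11.5 (12.7 to 21.0 against 27.1 to 48.2) or at E12.5 (7.89 to 12.02 against 19.9 to 33.6). Replicate 2 was also higher at each stage for Cd68, at 17.6 and 38.6, next 15.3 and 31.55, then 19.1 and 21.45. So it was for Cx3cr1, at 39.1 and 66.0, next 65.9 and 75.4, then 55.3 and 68.5. Replicate intervals did not overlap for Cd68 at E10.5 and E11.5 or for Cx3cr1 at E10.5. For C1qc at E11.5 replicate 1 was higher (50.3 against 23.5), also without overlap. Of the C1q chains at E12.5, C1qa stood at 48.8 and 27.0 and C1qc at 51.0 and 29.4 per 100 Csf1r counts, both higher in replicate 1 with intervals that did not overlap, while C1qb stood at 42.8 and 37.7 with overlapping intervals (38.1 to 47.9 and 29.98 to 47.2). Intervals cover counting error only.

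**Figure D3:**
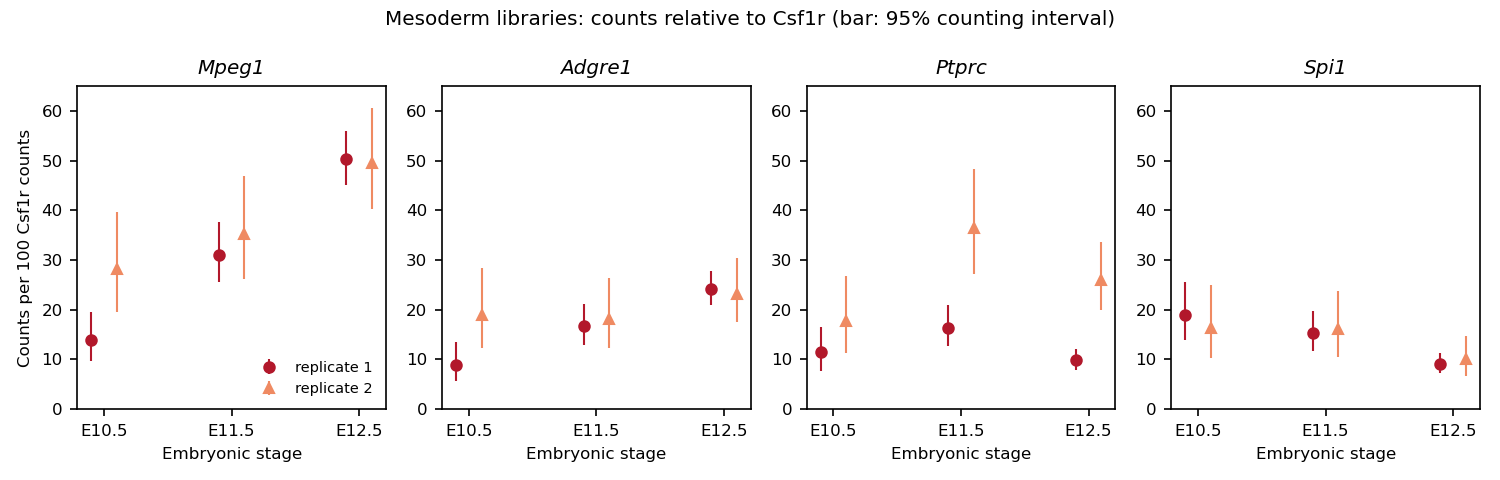
Counts of Mpeg1, Adgre1, Ptprc and Spi1 per 100 Csf1r counts in the mesoderm libraries from E10.5 on, with 95% counting intervals as bars; circles are replicate 1 and triangles replicate 2. Mpeg1 climbs to about 50 at E12.5, Spi1 falls to 9.10 and 10.03, and Ptprc is higher in replicate 2 at each stage.

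The layers did not separate at E9.5. There edgeR called 0 of the 10 members lower in ectoderm, where 8.29% of all tested genes were, and none passed at an unadjusted p under 0.05 or in DESeq2 or limma. At this depth the members had between 0 and 48 counts per layer, so a difference was not detectable for most. Cd68 had the most, with 48 counts in mesoderm and 32 in ectoderm.

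At E10.5, 5 of 10 members were lower in ectoderm, where 10.2% of all tested genes were. Csf1r was lower by 5.67 on the log2 scale (log2 fold change -5.67, SE 1.06, adjusted p = 0.00209), Cx3cr1 had -3.73 (SE 0.88, adjusted p = 0.00825) and C1qb -3.57 (SE 1.03, adjusted p = 0.0238). Spi1 (78 counts in mesoderm against 1, a ratio of 46.9 with a counting interval of 8.18 to 1877, adjusted p = 0.0154) and Ptprc (59 against 1, a ratio of 35.5 with an interval of 6.13 to 1425, adjusted p = 0.00471) made up the rest. Cd68 did not differ beyond its error, with a log2 fold change of -0.01 (SE 0.64, adjusted p = 0.996). With the embryo batch or the replicate number as a block 9 members were called, all but Cd68. Among all 15501 tested genes these blocks called 7531 and 7205 in either direction, against 4093 in the main fit. Leaving out ectoderm E10.5 replicate 1 or replicate 2 left fewer members, and fewer of all tested genes, called than the main fit.

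At E11.5 edgeR called 0 of 10 members lower in ectoderm, where 7.69% of all tested genes were, although all 10 had a fitted log2 fold change below 0 (-2.02 for Cx3cr1 to -0.75 for Cd68, median -1.83) and 4 passed at an unadjusted p under 0.05. DESeq2 called 2 and limma 5. In either direction DESeq2 called 3715 of 15501 genes and limma 3513 of 19201, against 3196 of 15501 in the main fit. The 2 ectoderm libraries of this stage disagreed. Leaving out ectoderm E11.5 replicate 1 leaves 1 library in its group, so effect sizes are given. With libraries left out in turn, all 10 fitted log2 fold changes stayed below 0. They ran from -4.16 to -1.24 for Cx3cr1, from -4.10 to -1.01 for Csf1r and from -1.16 to -0.48 for Cd68. A block for the embryo batch, which compares each ectoderm library with its own mesoderm, called 9 of 10. The replicate number as a block gave 6. Among all 15501 tested genes these blocks called 6197 and 5839 in either direction, against 3196 in the main fit, so calls rose in general.

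At E12.5 all 10 members were lower in ectoderm, where 13.2% of all tested genes were. Members near 0 in ectoderm passed the count filter through mesoderm, so this share is no independent support. The median log2 fold change was -5.18, beside 0.04 over all tested genes. Cx3cr1 had -7.02 (SE 0.99, adjusted p = 0.00029), C1qb -6.86 (SE 1.157, adjusted p = 0.000967), Csf1r -5.40 (SE 0.91, adjusted p = 0.000957) and Ptprc -4.51 (SE 0.82, adjusted p = 0.0016). Adgre1 had 314 counts in mesoderm and 3 in ectoderm, a ratio of 98.5 with a counting interval of 33.4 to 480. Cd68 had the smallest difference, -1.94 (SE 0.65, adjusted p = 0.0468). The count fell without mesoderm E12.5 replicate 1, ectoderm E12.5 replicate 1 or ectoderm E12.5 replicate 2. So did the number of all tested genes called lower in ectoderm. The members that then missed were Cd68, C1qa, C1qc, Mpeg1 and Spi1 in turn, with adjusted p between 0.0556 and 0.322.

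Within ectoderm 1 of 10 members rose between E9.5 and E12.5, where 9.10% of all tested genes were higher. This was Mpeg1, from 0 to 42 counts, at least 9.85-fold (adjusted p = 0.0408). The call was lost without ectoderm E9.5 replicate 1 (adjusted p = 0.131), ectoderm E9.5 replicate 2 (0.206) or ectoderm E12.5 replicate 1 (0.18). C1qa went from 0 to 16 counts and C1qc from 0 to 14, at least 3.75-fold and 3.28-fold above the floor, without passing. The test of the difference itself (the E12.5 against E9.5 change of ectoderm minus that of mesoderm) could not be estimated for Mpeg1. That gene had 0 counts in both E9.5 groups (SE 7594). For C1qa and C1qc, at 0 counts in ectoderm E9.5, the size of the difference is not defined either. With these genes included, the test called 0 of 10 members lower in edgeR, where 5.15% of all tested genes were, so this 0 does not show equal changes in both layers. At an unadjusted p under 0.05 it passed 4, DESeq2 called 4, limma 7 and the fit without ectoderm E11.5 replicate 1 called 2.

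Ectoderm was also set against the mesoderm of the same embryo batch. Summed over 9 members (without Cd68), ectoderm held 6.97% (95% counting interval 4.35 to 10.6) and 5.34% (3.57 to 7.71) of the mesoderm CPM at E10.5, and 2.57% (2.08 to 3.14) and 2.42% (1.54 to 3.62) at E12.5. At E11.5 it held 39.1% (35.8 to 42.8) in replicate 1 and 8.24% (6.17 to 10.8) in replicate 2. Each of the 9 genes was higher by this measure in replicate 1, from 32.6% (C1qc) to 50.6% (Ptprc), beside 0% to 7.97% in replicate 2 for 8 of them and 27.1% (15.2 to 46.2) for Mpeg1. At E9.5 the sums were only 8 counts in each ectoderm library, and the percentages of 35.3 (14.5 to 75.1) and 46.2 (17.2 to 112.9) are not distinct from each other or from 100 in the second batch.

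Other cell types gave these values in the same libraries. In ectoderm E11.5 replicate 1 the median limb mesenchyme marker stood at 42.3% of its mesoderm level, against 6.23% in replicate 2 and 3.62% to 18.3% in the other batches. The median endothelial marker stood at 1.47% and the median red blood cell marker at 0.524% there, within the range of the other batches. The members thus moved with the mesenchyme markers in this library and not with those of vessels and blood; what part this has in the result was not tested. Cd68 was at 50.1% (32.7 to 75.5) in this batch and at 67.4% (44.0 to 102.4) in the other E11.5 batch, so it did not show the gap.

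**Figure D4:**
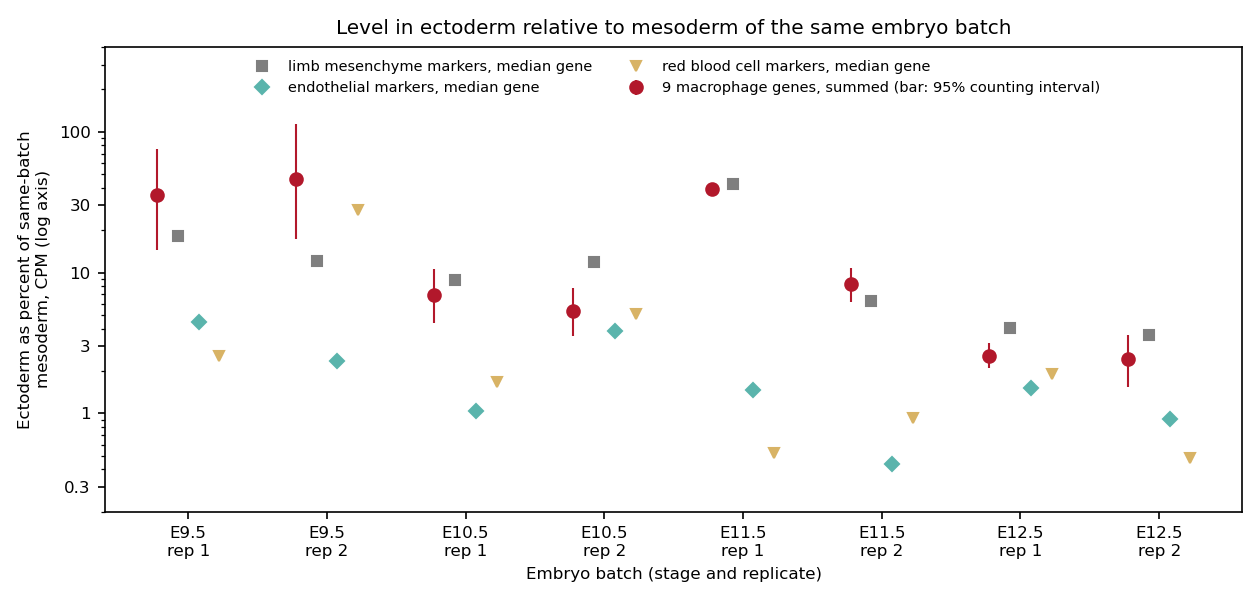
Level in ectoderm as a percent of the mesoderm of the same embryo batch, on a log axis, for the sum of 9 macrophage genes (bars are 95% counting intervals) and the median marker of 3 other cell types, in the 8 embryo batches. From E10.5 on the macrophage sum lies between 2.42% and 8.24% except in E11.5 replicate 1, at 39.1%, where the mesenchyme markers are at 42.3% and the vessel and red blood cell markers at 1.47% and 0.524%.

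Markers of other blood cells were measured in the same mesoderm libraries, and some of them grew as well. Of 4 monocyte markers Ly6c2 had 0 counts in all 16 libraries, and the list summed to between 0.922 and 5.16 CPM at E9.5 and between 0.976 and 1.53 at E12.5. Of 8 neutrophil markers Camp had 0 counts everywhere, and the list summed to between 0.861 and 1.86 CPM at E9.5, between 5.39 and 8.14 at E10.5 and between 4.45 and 6.67 at E12.5. Of 6 mast cell markers 4 (Mcpt4, Tpsb2, Fcer1a and Mrgprb1) had 0 counts everywhere, and the list went from 0 to 0.0615 CPM at E9.5 to between 1.89 and 2.18 at E12.5. The neutrophil sum rested on Mpo and Prtn3, as the other 6 had 0 to 5 counts in the 16 libraries, and the mast cell sum on Cpa3. Of these, Prtn3 (adjusted p = 0.00605) and Cpa3 (adjusted p = 0.0277) were called higher by edgeR at E12.5 against E9.5, and none of the 3 at E10.5. The neutrophil sum was higher at E10.5 than at E9.5, as the members were, but not higher still at E12.5; what part these cells have in the members' rise was not tested. The 8 lymphocyte markers summed to 11.3 to 16.6 CPM at E9.5 and 16.7 to 18.4 at E12.5, of which Lck alone made up 11.9 and 16.5 CPM as group means. The 7 megakaryocyte and platelet markers summed to 8.12 to 13.2 CPM at E9.5, 16.1 to 19.5 at E10.5, 17.3 to 37.3 at E11.5 and 12.2 to 19.5 at E12.5, with none of the 6 tested called at E10.5 or E12.5 against E9.5; their part in the members' rise was not tested. The endothelial sum was between 584 and 735 CPM at E9.5 and between 580 and 728 at E12.5, with 392 to 479 at E10.5. The red blood cell sum was between 2728 and 3949 CPM at E9.5, between 4286 and 5266 at E10.5 and between 2390 and 3281 at E12.5, so it was higher at E10.5 but not at E12.5.

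The receptors among the members have 3 ligands in the list used here. Csf1 rose in mesoderm from 3.46 ± 0.235 CPM at E9.5 to 10.2 ± 1.28 at E10.5 (log2 fold change 1.55, SE 0.31, adjusted p = 0.00904) and was at 14.4 ± 0.842 at E12.5 (2.06 against E9.5, SE 0.31, adjusted p = 0.000652). The E10.5 call of Csf1 was lost without mesoderm E9.5 replicate 1 (adjusted p = 0.0836), mesoderm E9.5 replicate 2 (0.0531) or mesoderm E10.5 replicate 2 (0.06). Its ectoderm level was 9.53 ± 0.251 CPM at E9.5 and 8.93 ± 1.54 at E12.5, with no call. Cx3cl1, the ligand of the Cx3cr1 receptor, rose between E9.5 and E12.5 in mesoderm, from 3.36 ± 1.19 to 12.1 ± 1.08 CPM (1.83, SE 0.46, adjusted p = 0.0121), and in ectoderm, from 1.51 ± 0.342 to 10.2 ± 5.11 CPM (2.74, SE 0.50, adjusted p = 0.0036). The mesoderm call of Cx3cl1 was lost without mesoderm E9.5 replicate 2 (adjusted p = 0.0933) or mesoderm E12.5 replicate 1 (0.0558). Il34, the other ligand of the Csf1r receptor, had 15 counts in the 16 libraries, all of them in ectoderm, and was not tested.

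Among 36 other macrophage genes, 31 were tested and 25 rose in mesoderm between E9.5 and E12.5 (median log2 fold change 4.70), beside the 17.0% of all tested genes. Those near 0 at E9.5 passed the count filter through later mesoderm libraries, so this count is no independent support. The 4 named by size had 0 counts in both E9.5 mesoderm libraries: Cybb, a subunit of the phagocyte oxidase, reached 113 counts at E12.5 (at least 35.6-fold), Aif1, which encodes IBA1, 68 counts (at least 21.4-fold), the scavenger receptor gene Msr1 67 counts (at least 21.1-fold) and the purine receptor gene P2ry12 65 counts (at least 20.5-fold). At E10.5 8 of the 31 had risen, beside 5.30% of all tested genes, against 21 with the replicate number as a block and 16 in DESeq2. Among all tested genes, 821, 2127 and 1166 were called higher in these fits. Leaving out any mesoderm library of E9.5 or E10.5 lowered both the list's count and that of all tested genes. Leaving out ectoderm E11.5 replicate 1 raised both. The E12.5 count fell without mesoderm E9.5 replicate 1, mesoderm E9.5 replicate 2 or mesoderm E12.5 replicate 1, as did that of all tested genes. Msr1 lost its call without any of these 3 libraries (adjusted p 0.0511 to 0.0728) and Cybb without the first (0.056). In ectoderm 1 of the 31 rose, beside 9.10% of all tested genes. At E12.5 26 of 31 were lower there than in mesoderm, beside 13.2%, with the same limit from the filter.

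Of 13 myeloid transcription factors 6 rose in mesoderm between E9.5 and E12.5, beside 17.0% of all tested genes, and 4 rose and 2 fell in ectoderm. There 9.10% of all tested genes were higher: 2495 of 15501 were called in either direction, of them 1410 higher and the rest lower. Those named were Maf, at 1.25 ± 0.197 and 30.7 ± 1.14 CPM (log2 fold change 4.61, SE 0.63, adjusted p = 0.00036), Runx1, at 1.13 ± 0.0278 and 20.0 ± 9.39 (4.14, SE 0.43, adjusted p = 7.72e-05), and Cebpa, at 0.628 ± 0.193 and 3.63 ± 1.52 (2.51, SE 0.53, adjusted p = 0.00485). Unlike most members, Runx1 was higher in replicate 2 at E12.5 (26.7 against 13.4 CPM). Runx1 and Maf are also used by skeletal and other mesenchymal cells. In ectoderm Runx1 rose from 2.55 to 19.0 CPM (log2 fold change 2.90, adjusted p = 0.000681) and Cebpa from 3.24 to 24.5 CPM (2.92, adjusted p = 0.00223). At E12.5 Cebpa was higher in ectoderm than in mesoderm (2.75, adjusted p = 0.00126), and Runx1 did not differ beyond its error between the layers (-0.07, adjusted p = 0.935). At E10.5 none was called by edgeR, against 4 by DESeq2 and 6 with the replicate number as a block. Among all tested genes, 821, 1166 and 2127 were called higher in these fits.

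Of 16 genes for the engulfment of dead cells 9 rose and 1 fell, beside 17.0% of all tested genes that were higher. Dock2 (log2 fold change 4.01, SE 0.61, adjusted p = 0.000719) and Rac2 (3.83, SE 1.11, adjusted p = 0.023), parts of the leukocyte machinery of cell movement, and the receptor gene Axl (2.998, SE 0.34, adjusted p = 0.000131) rose. Stab2, a scavenger receptor of sinusoidal vessels, fell by 2.87 on the log2 scale (SE 0.73, adjusted p = 0.0168), from 85 to 12 counts, beside 12.6% of all tested genes that were lower. Rac2 (adjusted p 0.111 to 0.138) lost its call without either mesoderm E9.5 library or mesoderm E12.5 replicate 1, and Stab2 (0.0533 to 0.105) without any 1 of the 4 libraries compared.

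Of 19 other complement genes 15 were tested and 5 rose, beside 17.0% of all tested genes, and those named were C3ar1 (230 counts at E12.5 against 1, a ratio of 217.5 with a counting interval of 38.7 to 8627) and the C1 protease genes C1s1 (log2 fold change 3.82, SE 0.62, adjusted p = 0.000988) and C1ra (3.43, SE 1.07, adjusted p = 0.0345). In ectoderm C1s1 rose as well (4.04, SE 0.60, adjusted p = 0.000949), to 13.6 CPM at E12.5 beside 4.87 in mesoderm. The count of 5 in mesoderm fell when either mesoderm E9.5 library was left out, and so did that of all tested genes. C1ra (adjusted p 0.127 to 0.22) lost its call without either mesoderm E9.5 library or mesoderm E12.5 replicate 1. Lysosome genes used by all cells moved less: of 19, 18 were tested, 6 rose and 1 fell, beside 17.0% and 12.6% of all tested genes, with a median log2 fold change of 0.58. Fewer passed without mesoderm E12.5 replicate 1, as among all tested genes. The 6 became 11 with the replicate number as a block. With that block, the genes called higher among all tested ones went from 2635 to 4143. Tfeb, a regulator of lysosome genes, rose by 3.81 (SE 0.33, adjusted p = 3.22e-05), Grn by 1.44 (SE 0.41, adjusted p = 0.0222) and Npc1 by 1.20 (SE 0.17, adjusted p = 0.000529). The protease gene Ctsl fell by 0.55 on the log2 scale (SE 0.17, adjusted p = 0.0264). Grn lost its call without mesoderm E9.5 replicate 2 or mesoderm E12.5 replicate 1 (adjusted p 0.147 and 0.196), and Ctsl without mesoderm E9.5 replicate 1, mesoderm E12.5 replicate 1 or mesoderm E12.5 replicate 2 (0.062 to 0.163).

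The genes most like the members were found by the Pearson correlation of log2 CPM with the mean standardised level of the 10 genes. Over all 16 libraries these were Myo1f (0.984), Evi2a (0.983), Ms4a6b (0.982), Ms4a6c (0.980), Cybb (0.979), Tyrobp (0.978), Mrc1 (0.976), Fcrls (0.975), Itga11 (0.973) and C3ar1 (0.973). Most of them are known from leukocytes or macrophages, and Itga11 is a collagen receptor gene of mesenchyme. Over the 8 mesoderm libraries alone they were Fcgr3 (0.997), Eva1a (0.995), Hbb-bt (0.994), Cdc25b (0.993), Evi2a (0.993), Rnf182 (0.992), Smox (0.988), Arhgef37 (0.988), Serinc2 (0.988) and Pik3cd (0.987). Fewer macrophage genes stand in the second list, where any gene that rises steadily with stage ranks high: Hbb-bt, an adult-type globin gene, went from 1.36 CPM at E9.5 to 62.9 at E12.5. The points share the libraries and the stage, so these values describe likeness only.

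Exon bins, which count reads over separate pieces of each gene, showed reads spread along the members with many bins. Csf1r had counts in 23 of 24 bins, Adgre1 in 24 of 26 and Ptprc in 35 of 40. The last bin of Csf1r, where the gene overlaps Hmgxb3 on the other strand, held 13 of its 3696 bin counts in mesoderm, beside group means of Hmgxb3 of 88.0 to 112 CPM in mesoderm. The annotated span of Cx3cr1 overlaps 9 other genes, and its counts fell in 4 of 7 bins. Of its mesoderm counts 91.8% lay in 1 bin of 3065 bases, as did 99.7% of those of Mpeg1 in 1 bin of 4251 bases. The 3′ bin of the C1q chains held from 74.9% (C1qc) to 79.9% (C1qa) of their mesoderm counts, so bins say little about spread for these genes.

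Cd68 lies 782 bases downstream of Eif4a1, a translation factor gene on the same strand with group means between 917 and 1883 CPM. The 2 bins at the 3′ end of Cd68 held 26.5% of its bin counts in mesoderm (215 of 813, exact 95% interval 23.4 to 29.6) and 35.2% in ectoderm (122 of 347, 30.1 to 40.4). Its longest bin held 28.4% in mesoderm (25.3 to 31.7) and 19.6% in ectoderm (15.6 to 24.2). Among its other bins, that at the 5′ end held 3.81% in mesoderm and 6.34% in ectoderm, and a bin of 27 bases 0.615% and 2.59%. The counts of Cd68 were thus spread differently over its bins in the layers; what part this has in its level was not tested.

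Ptprc allows a look at splicing, since its exons 4 to 6 (called A, B and C) are kept or skipped according to the kind of blood cell. In the 8 mesoderm libraries together, exons 4, 5 and 6, of 129, 147 and 141 bases (chr1:138122456-138122584, chr1:138120020-138120166 and chr1:138117754-138117894), had 1, 7 and 2 counts. Exon 2, of 112 bases, had 9 counts, exon 7, of 72 bases, 13, and exon 9, of 216 bases, 17. Summed, exons 4 to 6 held 2.40 counts per 100 bases and exons 3 and 7 to 9 held 15.2. Exons 3 and 8 have 24 bases each, where reads that reach in from the next exon weigh more per base, so the longer exons are the fairer comparison. The 3 exons thus had fewer counts per base than exons 2, 7 and 9, at 10 counts in all.

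**Figure D5:**
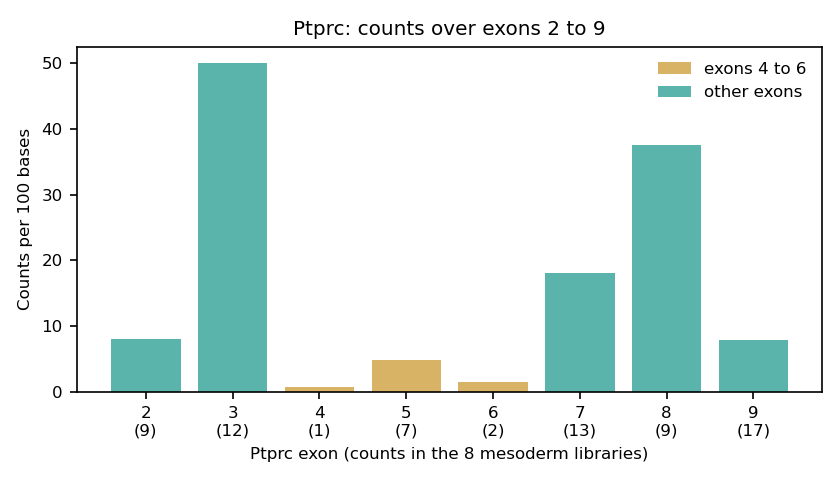
Counts per 100 bases over exons 2 to 9 of Ptprc, summed over the 8 mesoderm libraries, with the counts in brackets. Exons 4 to 6, of 1, 7 and 2 counts, lie below exons 2, 7 and 9, of 9, 13 and 17 counts; exons 3 and 8 are 24 bases long.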

How the data were processed

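Polyadenylated RNA was sequenced from 16 libraries of mouse forelimb ectoderm and mesoderm. Per the submitters' processing notes, the tools include STAR 2.6.0c, bedtools 2.27.1, cutadapt 1.16 and Cufflinks 2.2.1, with build mm10. For the gene counts, counter and use of strand are not given in the sources used here. The authors deposited whole-number counts per Ensembl gene and per exon bin, and FPKM values from Cufflinks. Exon bins were given positions by rebuilding them from protein-coding transcripts of GENCODE M21 (mm10). Complete transcripts gave the deposited number of bins in 8 genes; for Spi1 and Ptprc it was reached only with incomplete transcripts included.

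Gene counts were tested with edgeR 4.0.16 in R 4.3.3 (quasi-likelihood test with TMM scaling on all 16 libraries, 1 mean per group, genes kept by filterByExpr, Benjamini-Hochberg over 15501 genes, threshold 0.05). The step was tested on simulated counts. CPM use the effective library sizes, without a prior count except for correlations (prior count of 2). Alternatives were DESeq2 1.42.0, its size factors in edgeR, no filter on low counts, only the groups compared, replicate blocks, limma 3.58.1 on log2 of the deposited FPKM plus 0.1, and each library left out in turn. Leaving out ectoderm E11.5 replicate 1 from comparisons without its group was added after seeing the data. Ratios against 0 counts use a floor of 3 counts per group; intervals are exact 95% binomial ones and cover counting error only.

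Per the labels' protocols both layers of a replicate came from 1 batch of embryos, so equal numbers pair the layers. Deviations from the group means correlated between the layers of a batch with r of 0.546, 0.666, 0.561 and 0.651 at the 4 stages. The kit version goes with the replicate number in both layers, so these values cannot tell a shared batch from a shared kit. The 10 genes and all gene lists were chosen with earlier results of these data known. Named genes were all members and ligands, and from each other list up to 4 called genes with the largest change in mesoderm between E9.5 and E12.5 and those called the other way; likeness names the 10 highest correlations. Some genes that this rule names are not reported here.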

Additional observations from a re-analysis of the deposited data

How the results depend on the processing

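The 10 counts of called members were recomputed under 11 to 16 alternatives each. Without the filter on low counts, the count was 9 for E10.5 against E9.5 in mesoderm, 4 for E12.5 against E9.5 in ectoderm, 9 for the layers at E10.5, 9 for the layers at E11.5 and 4 for the interaction. In the paired fit, the replicate block of the embryo batch gave 9 for the layers at E10.5 and also 9 a day later. The replicate block of the replicate number gave 9 for the first mesoderm step, 9 for the layers at E10.5 and 6 at E11.5. The blocks moved no other count by over 1.5 times. They also raised calls among all 15501 tested genes, so larger counts of members or of listed genes under a block are not particular to them. For the layers at E11.5 all calls went from 3196 to 6197 (embryo batch) and 5839 (replicate number). For the first mesoderm step they went from 1433 to 4297. Leaving out a library of a compared group lowered calls among all tested genes in most comparisons. Only the groups compared gave 9 for the first mesoderm step, 0 for ectoderm, 8 for the layers at E10.5 and 2 for the interaction. DESeq2 gave 8, 8 (layers at E10.5), 2 (layers at E11.5) and 4 (interaction), and limma gave 0 for ectoderm, 5 for the layers at E11.5 and 7 for the interaction. With libraries left out in turn (a lone library is then assumed to vary like the other groups), counts ran from 6 to 10 for mesoderm E12.5 against E9.5, from 0 to 7 for E10.5 against E9.5, from 0 to 1 for ectoderm, from 3 to 7 for the layers at E10.5, 0 to 7 at E11.5, 5 to 10 at E12.5, and from 0 to 2 for the interaction. The 2 later mesoderm steps and the layers at E9.5 stayed at 0 calls in each alternative run.

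Of 800 recomputed fold changes of single members, 660 kept their direction and side of the threshold, 80 passed where they had not, 49 no longer passed and 11 changed sign, none of them a called value. The sign changed for Cd68 between the layers at E10.5 (0.0086 with the replicate number as a block, 0.0015 with only the groups compared, and from -0.738 to 0.720 with libraries left out). With libraries left out it also changed from E10.5 to E11.5 for C1qc (-0.380 to 1.44) and Cd68 (-0.188 to 1.056), and from E11.5 to E12.5 for Ptprc (-0.0196 to 0.401), Spi1 (-0.545 to 0.649), C1qa (-0.193 to 1.998) and C1qc (-0.364 to 2.25). Of 297 values of the other named genes 263 kept both, and 1 changed sign, Csf1 in ectoderm (-0.282 to 0.0776 with libraries left out). The cause of these shifts was not tested. Depth limits the E9.5 groups, where most members had under 10 counts.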
